A study of Homo sapiens with 12 samples.

Results

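The results below describe 10 genes of the integrated stress response in HCT116 cells: ATF4, ATF5, DDIT3, CHAC1, TRIB3, CEBPB, CEBPG, PPP1R15A, NUPR1 and STC2. They were picked by gene name, and all 10 are listed in each of the 4 tables of comparisons the authors deposited, of 23195 genes in all. The name list was drawn up with the measured pattern in view, so the values of these genes are a description and no test of them is offered as evidence. HCT116 is a human colorectal carcinoma line with intact p53. Polyadenylated RNA was sequenced from cells transfected with control siRNA (siControl) or with siRNA directed at RFX7 (siRFX7), each treated for 24 hours with 10 µM Nutlin-3a or with the solvent DMSO. Nutlin-3a blocks MDM2 and so stabilises p53, and RFX7 is a transcription factor of the regulatory factor X family. Each of the 4 groups had 3 libraries, 12 in all. All groups received an siRNA, and the reference is siControl with DMSO. The study used 1 cell line, the number and sequence of the siRNAs are not given in the sources used here, and the labels do not say whether replicates came from separate cultures, so the standard errors may reflect technical spread.

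The integrated stress response starts with kinases that phosphorylate the initiation factor eIF2α when amino acids or haem run short, when proteins misfold in the endoplasmic reticulum, or during infection. Most translation then falls, while the ATF4 messenger RNA is translated more efficiently through its upstream reading frames. ATF4 is a basic leucine zipper (bZIP) factor that pairs with C/EBP proteins and switches on genes for amino acid supply, redox balance and, under prolonged stress, cell death. Because ATF4 is regulated largely in translation, its RNA level is only part of its output, and no protein or phosphorylation was measured here.

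The deposited tables hold no value for a single library. They give, for every gene, a mean normalized count over all libraries (counts divided by DESeq2 size factors) and, for each comparison, a log2 difference with its standard error (SE). The level of a gene in each group was recovered from these and is given below in normalized counts per library, with the range of 1 SE either side. The average depth was between 26638558 and 27271227 counts per library in the 4 groups, and genes with a mean of at least 100 normalized counts had a median SE between 0.0869 and 0.0877 on the log2 scale. RFX7 itself stood at 944 normalized counts in siControl DMSO and 185 in siRFX7 DMSO, and at 1332 and 302 with Nutlin-3a. The p53 targets MDM2 and CDKN1A were higher with Nutlin-3a in the authors' deposited tables, by 3.99 and 4.46 on the log2 scale in siControl cells and by 3.30 and 3.53 in siRFX7 cells. With knockdown alone, in DMSO, both were also higher there, by 0.49 and 1.29. Under Nutlin-3a their knockdown differences were -0.21 and 0.35. Of 8 colon epithelial markers, 7 were listed, with a summed level between 115063 and 268845 normalized counts per group, and LGALS4 was not listed. The summed epithelial level was higher in both Nutlin-3a groups (268845 and 213276) than in the DMSO groups (119693 and 115063). The sum is weighted to abundant genes, KRT8 alone having a mean of 80338, so it does not describe each marker. The part of this sum in the values below was not tested. Of 5 leukocyte markers 3 were listed, none with a mean above 3.06 normalized counts, and PTPRC and CD3E were not listed. COL1A1, 1 of 4 listed of 5 fibroblast markers, had a mean of 441, and the highest of 2 listed of 4 endothelial markers, VWF, had 13.5.

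Of the 10 genes, 7 had their highest level in siControl DMSO: ATF4, DDIT3, CHAC1, TRIB3, CEBPB, CEBPG and STC2. Over the 19393 genes listed in all tables, 29.0% had their highest level in that group. PPP1R15A and NUPR1 were highest in siControl cells with Nutlin-3a, as were 23.0% of all genes, and ATF5 was highest in siRFX7 cells with DMSO, as were 20.8%. In the 7 genes highest in siControl DMSO, the Nutlin-3a-treated control cells and both siRFX7 groups lay between 15.2% and 64.0% of that group's level. In bulk RNA, fewer cells expressing a gene and less of its RNA per cell cannot be told apart.

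**Figure D1:**
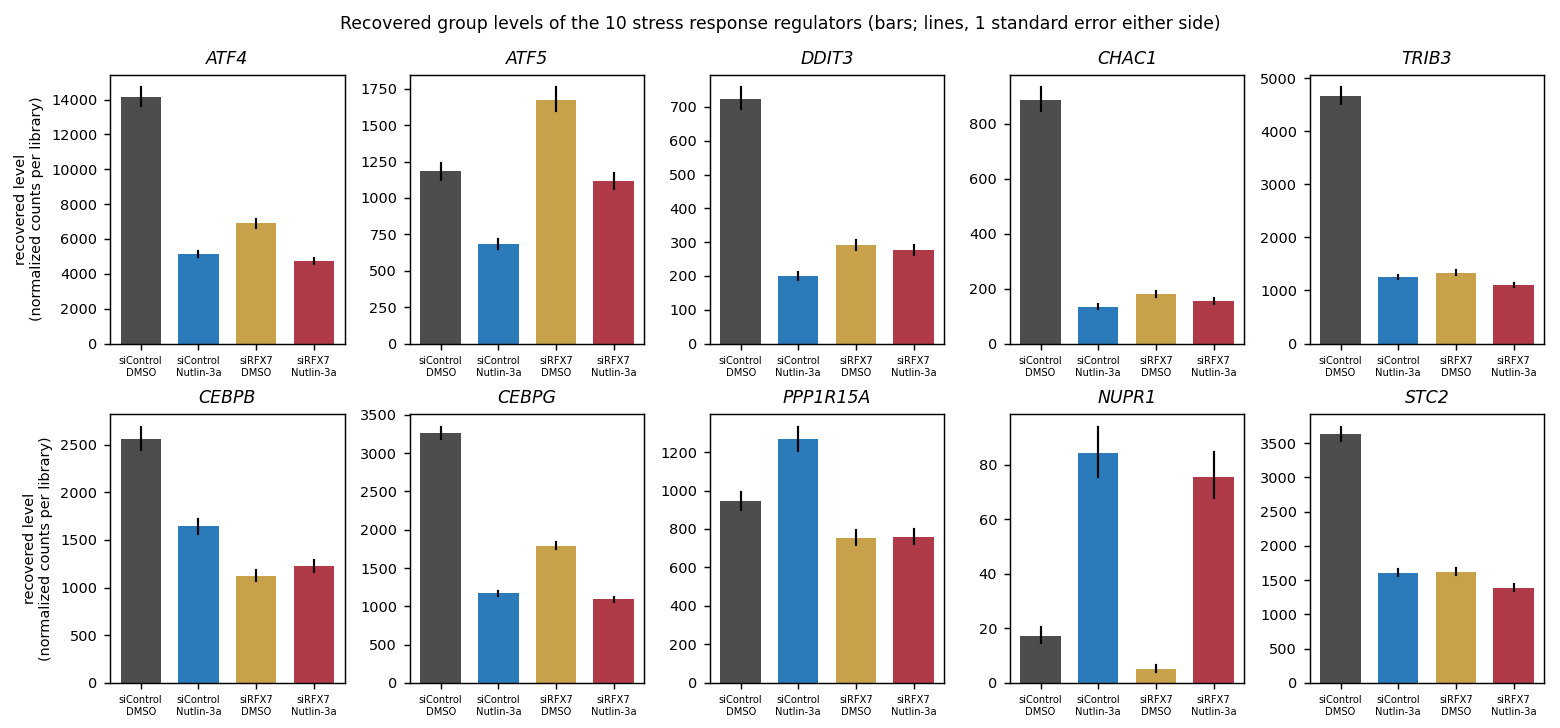
Recovered levels of the 10 genes in the 4 groups (3 libraries each), in normalized counts per library on axes that start at 0; bars are group levels and lines span 1 standard error either side. The first bar is the tallest in 7 panels, the second in PPP1R15A and NUPR1, and the third in ATF5.

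ATF4 was the most abundant of the 10. Its recovered level was 14166 normalized counts in siControl DMSO (13653 to 14699), 6895 in siRFX7 DMSO (6643 to 7156), 5128 in siControl with Nutlin-3a (4939 to 5324) and 4717 in siRFX7 with Nutlin-3a (4543 to 4898). The level in siControl DMSO was far above the other groups, siRFX7 DMSO came next, and both Nutlin-3a groups lay within 2 SE of each other. In the authors' deposited tables, ATF4 RNA had a log2 difference with Nutlin-3a of -1.47 (SE 0.08) in siControl cells and -0.55 in siRFX7 cells. By the authors' deposited tables, RFX7 knockdown gave a log2 difference of -1.04 in DMSO and -0.12 under Nutlin-3a, and the latter was not called at an adjusted p of 0.05. Either treatment alone left 36.2% (Nutlin-3a) or 48.7% (siRFX7) of the siControl DMSO level, and both together left 33.3%, whereas multiplying the separate effects would give 17.6%. Per length of its merged exons, ATF4 in siControl DMSO had 616 on a scale of normalized counts per kilobase, set to the same total in each group as in TPM, at the 98.8th percentile of genes, ahead of TRIB3 (149) and CEBPB (143) on the same scale. The processed pseudogenes ATF4P3 and ATF4P4 carry ATF4-like sequence and could take or give reads. Their levels in the 4 groups, in the order used for the bars, were 450, 148, 285 and 153 for ATF4P3 and 987, 338, 378 and 324 for ATF4P4, all small beside ATF4.

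CEBPG, a C/EBP-family partner of ATF4, followed the ATF4 order. It stood at 3267 normalized counts in siControl DMSO (3188 to 3347), 1791 in siRFX7 DMSO (1745 to 1838), 1173 in siControl with Nutlin-3a (1141 to 1206) and 1092 in siRFX7 with Nutlin-3a (1062 to 1124). The last pair lay within 2 SE of each other. Leaving out the noise of counting reads, CEBPG had the smallest estimated spread between replicates of the 10. Its coefficient of variation on that basis was 3.83%, beside a median of 6.41% over genes with a mean of at least 100. CEBPB, the other C/EBP gene of the set, differed in its lower groups. Its level was 2564 in siControl DMSO (2444 to 2689), 1642 in siControl with Nutlin-3a (1564 to 1724), 1222 in siRFX7 with Nutlin-3a (1164 to 1284) and 1127 in siRFX7 DMSO (1072 to 1184). Both siRFX7 groups were thus below both control groups, and Nutlin-3a did not separate the siRFX7 groups by more than 2 SE. The authors' deposited tables give CEBPB a log2 difference with knockdown of -1.19 in DMSO and -0.43 in Nutlin-3a, both called lower. CEBPB shares 231 exon bases with the antisense gene CEBPB-AS1, whose mean was only 5.97 normalized counts.

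DDIT3, which encodes the pro-apoptotic bZIP factor CHOP, had 725 normalized counts in siControl DMSO (693 to 758), 292 in siRFX7 DMSO (278 to 307), 276 in siRFX7 with Nutlin-3a (262 to 291) and 199 in siControl with Nutlin-3a (188 to 210). The siRFX7 groups lay within 2 SE of each other, and both lay above Nutlin-3a-treated control cells. The direction of the knockdown difference thus turned between treatments, from -1.31 (SE 0.10) in DMSO to 0.48 (SE 0.11) in Nutlin-3a, each called in the authors' deposited tables. DDIT3 shares 355 exon bases on the opposite strand with MARS, the cytosolic methionyl-tRNA synthetase gene, and 58 with MBD6. On the same strand it shares 105 exon bases with AC022506.1, which was not listed and which counting by strand would not separate. Whether counting used strand is not given in the sources used here, so the DDIT3 values are uncertain to the extent of these overlaps. MARS was highest in siControl DMSO (11320) and stood at 5324, 6934 and 4966 normalized counts in the other groups, in the order used for the bars. With knockdown under Nutlin-3a, MARS had a log2 difference of -0.10 in the authors' deposited table, opposite in sign to DDIT3. With knockdown in DMSO it had -0.71, and with Nutlin-3a -1.09 in control and -0.48 in siRFX7 cells, each the same sign as DDIT3. MBD6 stood at 768, 862, 536 and 820 normalized counts in the order used for the bars. The part of shared reads in the DDIT3 values was not tested.

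CHAC1 encodes an enzyme that degrades glutathione and showed the widest range among the 7 genes. Its level was 888 normalized counts in siControl DMSO (845 to 933), 182 in siRFX7 DMSO (171 to 193), 155 in siRFX7 with Nutlin-3a (145 to 166) and 135 in siControl with Nutlin-3a (126 to 144). The 3 lower groups were close together: each neighbouring pair in that order lay within 2 SE, though siRFX7 DMSO and Nutlin-3a-treated control cells did not. The log2 difference of CHAC1 in the authors' deposited tables was -2.29 (SE 0.11) with knockdown in DMSO and -2.72 (SE 0.12) with Nutlin-3a in control cells. The first of these was the 2nd lowest of the 12463 genes with a mean of at least 100. Both treatments together left 17.5% of the siControl DMSO level, where multiplying the separate effects would give 3.11%.

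TRIB3, a pseudokinase induced by ATF4 and known to hold ATF4 activity in check, stood at 4668 normalized counts in siControl DMSO (4513 to 4828), 1335 in siRFX7 DMSO (1287 to 1384), 1255 in siControl with Nutlin-3a (1210 to 1301) and 1107 in siRFX7 with Nutlin-3a (1067 to 1149). The middle pair lay within 2 SE, and the doubly treated cells were lowest. Their log2 difference of -0.18 from Nutlin-3a-treated control cells was not called in the authors' deposited table. STC2, a secreted glycoprotein, had the same order. It had 3634 in siControl DMSO (3528 to 3742), 1625 in siRFX7 DMSO (1575 to 1677), 1605 in siControl with Nutlin-3a (1555 to 1656) and 1392 in siRFX7 with Nutlin-3a (1348 to 1437). For STC2, knockdown and Nutlin-3a each left nearly the same share of the siControl DMSO level, 44.7% and 44.2%, and both together left 38.3%.

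ATF5 is a bZIP factor related to ATF4 that is also controlled in translation and takes part in the mitochondrial stress response. It was the only one of the 10 that was higher after knockdown both in DMSO and under Nutlin-3a. It had 1676 normalized counts in siRFX7 DMSO (1596 to 1760), 1183 in siControl DMSO (1125 to 1243), 1113 in siRFX7 with Nutlin-3a (1059 to 1170) and 682 in siControl with Nutlin-3a (648 to 718). siControl DMSO and doubly treated cells lay within 2 SE of each other, and the other neighbours in the order did not. The authors' deposited tables give ATF5 a log2 difference with knockdown of 0.50 (SE 0.10) in DMSO and 0.71 (SE 0.10) under Nutlin-3a, the first below a minimum difference of 0.58. Nutlin-3a gave -0.79 in control and -0.59 in siRFX7 cells there, so ATF5 fell with Nutlin-3a whether or not RFX7 was depleted. The difference of these responses, 0.20 (SE 0.14), was not called, and both treatments together left 94.1% of the siControl DMSO level where multiplying their effects gives 81.7%. ATF5 shares 626 exon bases on the opposite strand with NUP62, a nuclear pore gene, and 75 with IL4I1. On the same strand it shares 74 with the microRNA gene MIR4751, which was not listed. The ATF5 values are uncertain to the extent of these overlaps. NUP62 stood at 3801, 1863, 3073 and 1679 normalized counts in the order used for the bars. In the authors' deposited tables its knockdown log2 difference was -0.31 in DMSO and -0.15 (not called) under Nutlin-3a, opposite in sign to ATF5. With Nutlin-3a it had -1.03 in control and -0.87 in siRFX7 cells there, the same sign as ATF5. The part of shared reads in the ATF5 values was not tested.

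PPP1R15A (GADD34), the stress-induced subunit that directs protein phosphatase 1 to eIF2α and so closes the response, was called higher with Nutlin-3a in control cells and was not called in siRFX7 cells. It had 1266 normalized counts in siControl with Nutlin-3a (1204 to 1332), 944 in siControl DMSO (896 to 994), 760 in siRFX7 with Nutlin-3a (721 to 801) and 754 in siRFX7 DMSO (716 to 795). The siRFX7 groups were the lowest and lay within 2 SE of each other. The authors' deposited tables give log2 differences with knockdown of -0.32 in DMSO and -0.74 (SE 0.11) in Nutlin-3a, and with Nutlin-3a of 0.42 (SE 0.10) in control and 0.01 in siRFX7 cells, the last not called and -0.044 with equal total counts in each group. The difference of the Nutlin-3a responses, -0.41 (SE 0.15), did not pass the threshold over all genes.

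NUPR1, a small chromatin-associated stress protein, was scarce and varied most between replicates. Its estimated coefficient of variation was 15.4% without the noise of counting reads, which adds further spread at such low counts. It had 84.3 normalized counts in siControl with Nutlin-3a (75.6 to 94.1), 75.7 in siRFX7 with Nutlin-3a (67.7 to 84.6), 17.4 in siControl DMSO (14.7 to 20.5) and 5.07 in siRFX7 DMSO (3.89 to 6.61). It was thus high in both Nutlin-3a groups, which lay within 2 SE of each other, and lowest in siRFX7 DMSO. The authors' deposited tables give it the log2 differences 2.28 (SE 0.29) and 3.90 (SE 0.42) with Nutlin-3a in control and siRFX7 cells, and -1.78 (SE 0.45) with knockdown in DMSO.

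Over the 10 genes, the authors' deposited table for RFX7 knockdown in DMSO called 9 lower and 1 higher at an adjusted p below 0.05, beside 15.5% of genes called lower and 13.5% called higher in the whole table. With equal total counts in each group the whole-table split moved from 2704 higher and 3107 lower to 3391 higher and 2262 lower, and the 10 genes kept their calls. The median log2 difference of the 10 was -1.17, beside 0.00 over all genes. Nutlin-3a in control cells gave 8 called lower and 2 called higher, beside 21.2% and 22.0% of genes in that authors' deposited table, with a median of -1.32, so that all 10 were called where 43.2% of genes were called in either direction. These comparisons share the siControl DMSO libraries, so a high or low value there moves both.

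In the comparisons that leave out siControl DMSO, the 10 genes had medians nearer 0, though NUPR1 with Nutlin-3a and ATF5 and PPP1R15A with knockdown had larger differences there than in the matching comparison that includes it. In the authors' deposited table for knockdown under Nutlin-3a, ATF5 and DDIT3 were called higher, and CEBPB, PPP1R15A and STC2 lower. The other 5 were not called, the whole-table shares were 15.0% higher and 13.6% lower, and the median of the 10 was -0.14. In the authors' deposited table for Nutlin-3a in siRFX7 cells, NUPR1 was called higher and ATF4, ATF5, TRIB3, CEBPG and STC2 lower. The other 4 were not called, the whole-table shares were 21.7% higher and 19.7% lower, and the median of the 10 was -0.22.

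**Figure D2:**
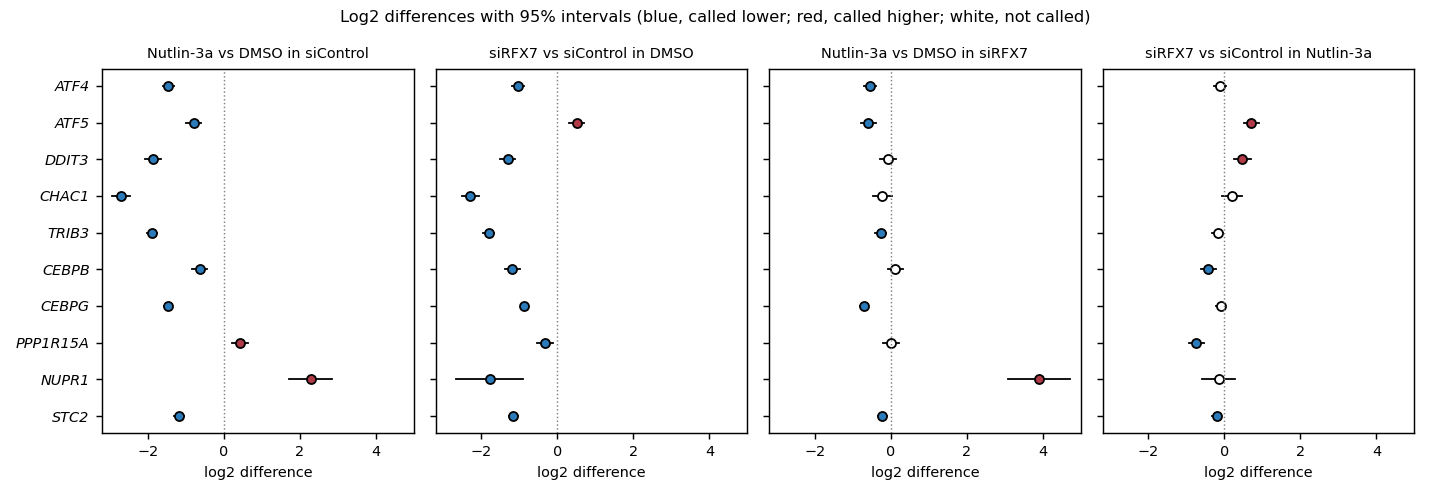
Log2 differences of the 10 genes in the 4 deposited comparisons, with 95% intervals from the deposited standard errors; filled points were called at an adjusted p below 0.05. The 2 panels on the left use the siControl DMSO libraries and hold the widest differences of the 7 genes highest in that group; the 2 on the right do not use them.

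The Nutlin-3a response in siRFX7 cells minus that in control cells was computed for every gene from the deposited values, and it was positive and called for 8 of the 10 genes, beside 3.28% of genes called positive, 2.92% called negative and 6.2% called in either direction. Under equal total counts the whole-table counts moved from 760 positive and 677 negative to 583 positive and 792 negative. The differences were 2.49 (SE 0.18) for CHAC1, 1.79 (SE 0.15) for DDIT3 and 1.63 (SE 0.10) for TRIB3, ranks 1, 3 and 5 from the top of the 12463 genes with a mean of at least 100. STC2 had 0.96 (SE 0.09) and ATF4 0.92 (SE 0.11), while CEBPG and CEBPB both had 0.76 (SE 0.08 and 0.14). NUPR1, with few counts, had 1.62 (SE 0.50) and was no longer called at an adjusted p of 0.01. The positive sign means a smaller negative value with Nutlin-3a in siRFX7 cells for 6 of these genes, a sign change for CEBPB whose siRFX7 value of 0.12 was not called, and a steeper rise for NUPR1. This interaction also contains the siControl DMSO libraries and is not a separate line of support. For the 7 genes highest in siControl DMSO, it restates that both treatments together left more RNA than multiplying the separate effects would give. For ATF4 these shares of the siControl DMSO level were 33.3% and 17.6%. NUPR1 was not high in siControl DMSO (17.4 normalized counts) and was lowest in siRFX7 DMSO (5.07).

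**Figure D3:**
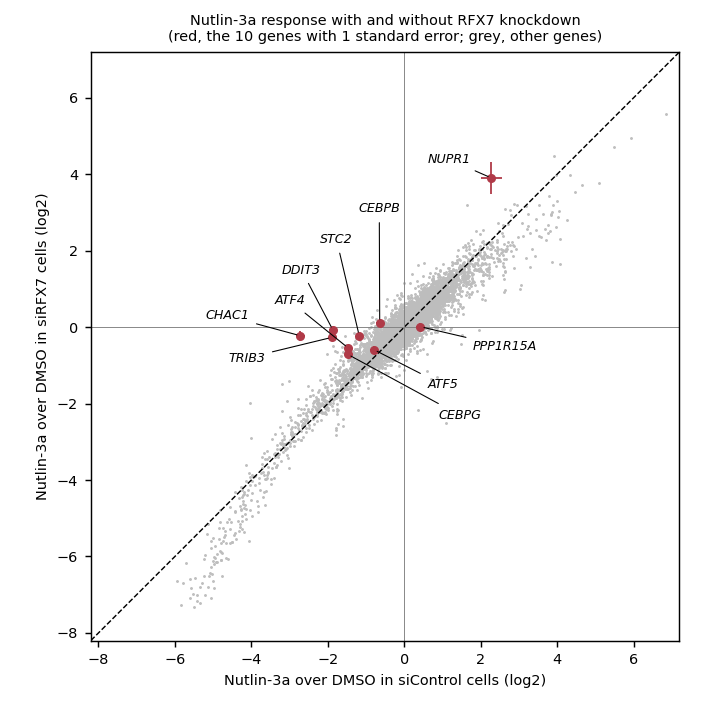
Log2 difference of Nutlin-3a over DMSO in siControl cells (horizontal) and siRFX7 cells (vertical), for the 10 genes (red, bars of 1 standard error) and for the genes with a mean of at least 100 normalized counts (grey); the dashed line marks equal responses. CHAC1, DDIT3 and TRIB3 lie far above the line on the left, ATF5 and PPP1R15A close to it, and NUPR1 above it on the right.

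The 4 group levels of each gene were also compared with those of all 12463 genes with a mean of at least 100, after centring the log2 levels, by the straight-line distance over the 4 groups in log2 units. Closest to ATF4 were GPT2, a transaminase gene (0.06), CEBPG (0.15), PTPDC1 (0.16), GTPBP2 (0.17) and AARS, the alanyl-tRNA synthetase gene (0.22). Closest to CHAC1 were TRIB3 (0.58), the cystine transporter gene SLC7A11 (0.64), the bZIP gene JDP2 (0.77), the pseudogene PSAT1P4 (0.77), which shares sequence with PSAT1, and ULBP1 (0.78). In likeness to ATF4, STC2 ranked 23rd, DDIT3 85th, TRIB3 191st, CEBPB 960th, CHAC1 2750th, ATF5 5742nd and PPP1R15A 7380th, and NUPR1 was below the minimum mean. The distance was not scaled for the size of the differences, so a gene with the same order but wider differences ranks low. In likeness to CHAC1, ATF4 ranked 14th. Closest to ATF5 were HPCAL4 (0.09), BOD1 (0.11), AIF1L (0.12), AC012146.1 (0.12) and DGAT2 (0.13), none of them among the 10 genes.

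The 300 bases around each start site (250 before and 50 after, RefSeq, GRCh38.p14) were searched on both strands for short motifs, because most of the 10 genes fell together with knockdown in DMSO. Windows were found for 9 of the 10 genes, and a gene with several start sites has several windows. The C/EBP-ATF response element TGATGNAA, which ATF4 and C/EBP dimers bind, is in 3.62% of 35116 windows (4.46% of 27305 genes) and in those of CHAC1 and CEBPG. The RFX half-site GTTGCC, part of the X-box that RFX proteins bind, is in 12.2% of windows (14.6% of genes) and in those of ATF5, TRIB3, CEBPG and STC2. The cAMP response element TGACGTCA, looked for after the sequences were seen, is in 1.85% of windows (2.25% of genes) and in that of PPP1R15A. The ER stress element is in 0.0769% of windows (0.0916% of genes) and in none of the 9. Each 30-base stretch is printed 5′ to 3′ on the strand of the gene, with the match, which may be on the other strand, in capitals.
CHAC1 response element (chr15:40953251-40953280, plus strand): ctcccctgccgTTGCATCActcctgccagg
CEBPG response element (chr19:33374060-33374089, plus strand): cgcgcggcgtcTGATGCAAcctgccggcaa
CEBPG RFX half-site (chr19:33374073-33374102, plus strand): atgcaacctgccGGCAACacccggcgggga
TRIB3 RFX half-site (chr20:381256-381285, plus strand): gggcgtctgcgtGTTGCCgcgtgttacacg
STC2 RFX half-site (chr5:173328600-173328629, minus strand): cgccgccaggtcGGCAACtttgtccggcgc
ATF5 RFX half-site (chr19:49930004-49930033, plus strand): gcgggacccagaGGCAACcctctaagtggg
PPP1R15A cAMP response element (chr19:48872352-48872381, plus strand): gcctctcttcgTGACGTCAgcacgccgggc
These matches lie 209 (CHAC1), 42 and 28 (CEBPG), 27 (TRIB3), 203 (STC2), 229 (ATF5) and 58 (PPP1R15A) bases before the start site. In GENCODE v29 the CHAC1, TRIB3 and STC2 stretches fall in an annotated exon and UTR of the gene, those of CEBPG and ATF5 within the gene but outside its exons, and that of PPP1R15A outside annotated genes. In CEBPG the stretches of the response element and the half-site overlap, while the capital letters do not. A match describes the sequence only, and no binding was measured.

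Genes around the 10 were read from lists of known pathway members. Among 41 genes described as ATF4 targets, which supply amino acids, charge tRNAs and handle redox stress, 35 of 39 listed were lower with knockdown in DMSO in the authors' deposited table and the other 4 were not called, with a median of -0.78, where 15.5% of all genes were lower. Among those with a mean of at least 100 normalized counts, DDIT4, an mTORC1 inhibitor, and SLC7A11 fell most, with log2 differences of -1.97 and -1.63 in the authors' deposited table. With Nutlin-3a in control cells, 28 of 40 were lower and 7 higher by the authors' deposited table (21.2% and 22.0% over all genes), and the median was -0.91. SLC1A4, a neutral amino acid transporter, and PHGDH, which opens serine synthesis, had -4.02 and -2.41 there, while the p53 targets GDF15 and TNFRSF10B had 3.17 and 1.55 in the authors' deposited table. Under Nutlin-3a, knockdown left 16 of 39 lower and 6 higher in the authors' deposited table (13.6% and 15.0% over all genes), with a median of -0.06. DDIT4 differed from that median, with -1.78 there in the authors' deposited table. Its highest level was in siControl with Nutlin-3a (7731 normalized counts), beside 6416 in siControl DMSO. In all, 28 of the 39 had their highest level in siControl DMSO, where 29.0% of all genes did.

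The 21 genes upstream of ATF4 were eIF2α kinases, eIF2 and eIF2B subunits, the constitutive phosphatase subunit and their regulators. With knockdown in DMSO, 8 were lower and 3 higher in the authors' deposited table, beside whole-table shares of 15.5% and 13.5%, with a median of 0.03 and a range from -0.47 (OMA1, a mitochondrial protease) to 0.32 (EIF2AK2, the kinase PKR). GCN1, a co-activator of the kinase GCN2, had -0.40 and EIF2AK4, which encodes GCN2, 0.30 in the authors' deposited table. With Nutlin-3a in control cells 6 were lower and 6 higher by the authors' deposited table (21.2% and 22.0% over all genes), among them EIF2AK4 at 0.75, EIF2B2 at 0.47, EIF2S2 at -0.83 and PPP1R15B at -0.49.

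Of 31 other bZIP genes, 29 were listed, and with knockdown in DMSO 14 were lower and 5 higher in the authors' deposited table (15.5% and 13.5% over all genes), with a median of -0.23. JDP2 and MAFF, dimer partners that lack an activating domain, had -1.22 and -0.97, and the AP-1 genes JUN and BATF3 had 0.62 and 0.51 in the authors' deposited table. With Nutlin-3a in control cells 9 were lower and 11 higher by the authors' deposited table (21.2% and 22.0% over all genes). There JDP2 had -2.02 and NFIL3 -1.10, against 1.25 for FOSL2 and 1.05 for ATF3.

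**Figure D4:**
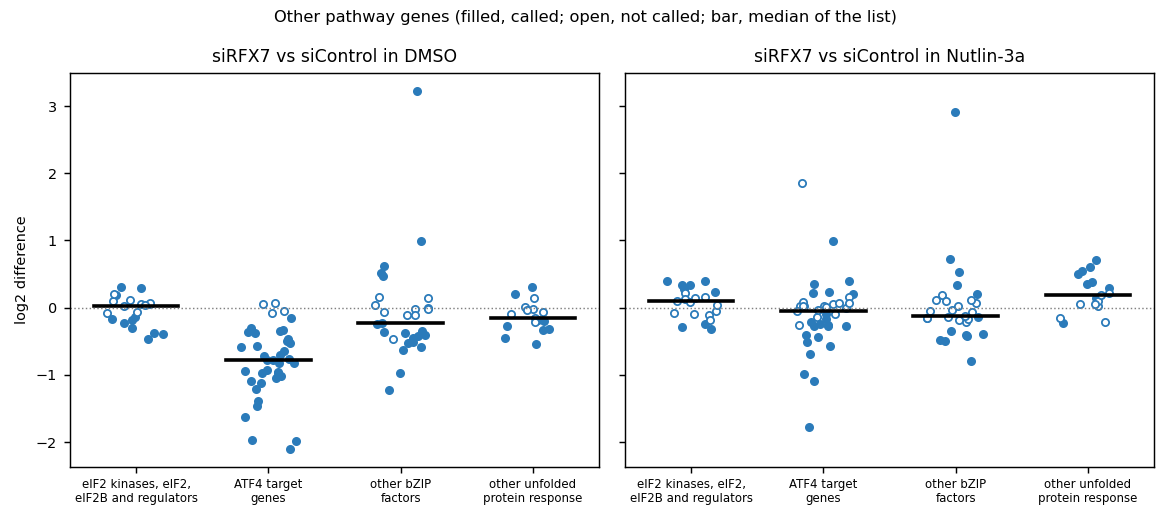
Log2 difference of siRFX7 over siControl in DMSO (left) and in Nutlin-3a (right) for genes of the 4 pathway lists; each point is a gene, filled where called at an adjusted p below 0.05, and bars are medians. In DMSO the ATF4 target genes lie mostly below 0 with a median of -0.78, and under Nutlin-3a their median is -0.06.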

How the data were processed

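The authors deposited 4 tables of DESeq2 results, per the file headers, each with a mean normalized count per gene (a signal value), a log2 difference with its standard error, a test statistic (a score), a p-value and an adjusted p-value. The submitters' processing notes name DESeq2 1.20.0, featureCounts 1.6.5, cutadapt 2.10, Trimmomatic 0.39 and genome build hg38; strand handling in the counting is not given in the sources used here. The tables were used as deposited and hold 20026 (knockdown in DMSO), 19393 (knockdown in Nutlin-3a) and 23195 (both Nutlin-3a comparisons) genes. No counts per library were given, so no count model was fitted. The direction of the knockdown tables was read from their closure: Nutlin-3a and knockdown differences added up to within 1.27e-14 for siRFX7 over siControl, while the other direction left a median of 0.374.

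Group levels were solved from the mean and the log2 differences, and their standard errors and the replicate spread from the deposited standard errors, with a depth per group fitted on genes with a mean of at least 100; the procedure was tested on simulated data. The interaction was a z test on the deposited values, adjusted by the Benjamini-Hochberg method over 23195 genes. A call means an adjusted p below 0.05. Neighbouring levels were set against 2 SE. Gene structures came from GENCODE v29, matching 23164 of 23195 identifiers. Python 3.11.15, pandas 2.3.3 and scipy 1.17.1 were used. The 10 genes and the pathway lists were chosen with earlier results of these data known. Named genes were the 10, RFX7, MDM2 and CDKN1A, the 2 largest called rises and falls of each list (mean at least 100) with knockdown in DMSO and with Nutlin-3a in control cells, and the 5 genes closest to ATF4, CHAC1 and ATF5. Overlapping genes, pseudogenes and cell type markers were added to check these values.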

Additional observations from a re-analysis of the deposited data

Results flagged for a closer look

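The Nutlin-3a response differed between siRFX7 and siControl cells for 8 of the 10 genes, by the z test on the deposited log2 differences adjusted over all genes. The difference (siRFX7 minus siControl, log2) was 2.49 for CHAC1, 1.79 for DDIT3, 1.63 for TRIB3, 1.62 for NUPR1, 0.955 for STC2, 0.918 for ATF4, 0.765 for CEBPG and 0.760 for CEBPB. The genes were chosen with this pattern known, and every value includes the siControl DMSO libraries. For NUPR1 it rests on 5.07 normalized counts per library in siRFX7 DMSO. No library can be examined singly, because the tables give no value per library.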

How the results depend on the processing

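Requiring an absolute log2 difference of at least 0.58 left 0 of the 10 genes higher with knockdown in DMSO, 1 higher and 1 lower with knockdown in Nutlin-3a, 1 higher with Nutlin-3a in siControl cells and 2 lower with Nutlin-3a in siRFX7 cells. The genes that dropped out there include ATF5 with knockdown in DMSO (0.50) and ATF4 with Nutlin-3a in siRFX7 cells (-0.55). This minimum left 1044, 801, 2585 and 2407 genes of the whole tables called higher and 503, 681, 2613 and 2423 lower in those 4 comparisons, and 185 positive and 359 negative interactions (760 and 677 without it). It moved 30 of 40 pathway list counts by over 1.5 times. Of these, with knockdown in DMSO the upstream list went from 3 higher and 8 lower to 0 and 0, the bZIP list from 5 and 14 to 3 and 4, and the other unfolded protein response list from 2 and 7 to 0 and 0. With knockdown in Nutlin-3a the ATF4 targets went from 6 and 16 to 1 and 4 and the unfolded protein response list from 8 and 1 to 2 and 0. With Nutlin-3a in siControl cells the upstream list went from 6 and 6 to 1 and 1, the bZIP genes from 9 lower to 4, the ATF4 targets from 7 higher to 4 and the unfolded protein response list from 7 and 4 to 0 and 0. With Nutlin-3a in siRFX7 cells the unfolded protein response list went from 14 higher to 5, and its positive interactions from 9 to 2. Equal total counts added 1 negative interaction, PPP1R15A at -0.44 (adjusted p 0.0496, z test). The PPP1R15A response to Nutlin-3a in siRFX7 cells, 0.01 and not called, became -0.044 with equal totals and -0.017 with a median difference of 0. At an adjusted p of 0.01, PPP1R15A with knockdown in DMSO and the NUPR1 interaction were no longer called. Adjusting over genes with a mean of at least 10 added TRIB3 with knockdown in Nutlin-3a (-0.18). Neither rescaling shifted a comparison by more than 0.057 log2 units, and 7 genes stayed highest in siControl DMSO under both. No paired analysis was possible because the tables hold no value per library; leaving out replicates and refitting counts with edgeR or DESeq2 were not run for the same reason. Depth limits NUPR1 most.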

Other observations

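Genes of the other arms of the unfolded protein response, which are driven by ATF6 and XBP1 and encode chaperones and degradation factors of the endoplasmic reticulum, were read from a list of 17. Of these, 11 had their highest level in siRFX7 cells with Nutlin-3a and 3 in siControl DMSO, beside 27.2% and 29.0% of all genes; the difference from the ATF4 targets was not tested. With Nutlin-3a in siRFX7 cells 14 were called higher by the authors' deposited table (DESeq2) and the other 3 were not called, beside 21.7% of all genes called higher, with a median of 0.45. In control cells 7 were higher and 4 lower by the authors' deposited table (22.0% and 21.2% over all genes), with a median of 0.10. The chaperone genes DNAJB9 and HYOU1 had 0.49 and 0.48 there, and PDIA6 and MANF -0.38 and -0.33. With knockdown in DMSO the authors' deposited table called 2 higher and 7 lower (13.5% and 15.5% over all genes): CRELD2 had 0.31 and PDIA4 0.20, and EDEM1 -0.54 and SYVN1 -0.46. Under Nutlin-3a the authors' deposited table called 8 higher and 1 lower with knockdown (15.0% and 13.6% over all genes), with a median of 0.19.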
